A study of Mus musculus with 10 samples.

Results

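Long interspersed nuclear elements (LINEs) were described here through every alignment that the table of poly(A) tail measurements assigns to the repeat class LINE, grouped by its family label and without regard to any measured value. In the series 51315 reference sequences received at least 1 alignment. Of these 1821 were LINE copies, 33680 were of the class labelled mRNA, 9908 were SINE copies and 5123 were LTR copies. The class labelled mRNA, called mRNA below, holds 15 types of transcript. Mitochondrial transcripts and the pseudogene Gm6472 are among them, whereas the study left mitochondrial transcripts and pseudogenes out of its poly(A) analysis. The LINE copies belonged to 114 elements in 4 families. All quality tags were used for shares of reads, and tail lengths were taken from reads tagged PASS by Nanopolish. The study required the same tag for its poly(A) analysis. Alignments with other tags can hold a tail length too, so a missing PASS tag is not a missing tail. Another tag, SUFFCLIP, stood on 18.2% of LINE alignments and 2.22% of mRNA alignments.

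The study examined the RNA-binding protein LARP1 in P19 cells, a mouse embryonal carcinoma line that can be turned into neurons. Wild-type, undifferentiated P19 cells were transfected either with a pool of scrambled siRNAs (siCtl) or with 1 siRNA against Larp1 (siLarp1), and RNA was taken after 24 h, or after 48 h with a second transfection in between. There were 3 libraries of each treatment at 24 h and 2 of each at 48 h, all read by nanopore direct RNA sequencing, in which each read starts at the poly(A) tail of an RNA molecule. The siCtl and siLarp1 libraries of 24 h were pooled and sequenced separately, so pool and treatment cannot be told apart at that time, whereas the 4 libraries of 48 h shared 1 pool. By the study's methods the libraries of a group are biological replicates.

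LINEs are retrotransposons, genomic sequences that spread by copying an RNA back into DNA. A complete L1 element carries its own promoter, reading frames and a short poly(A) sequence, and its enzyme can also copy other mRNAs of the cell into the genome, which leaves processed pseudogenes. Most copies in the mouse genome are truncated and silent, and many lie inside the introns or untranslated ends of genes, where they are carried along in the host gene's RNA. An alignment to a LINE copy is therefore not by itself a LINE transcript, and the values that follow describe which sequences the reads lay on.

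Depth ranged from 141919 to 541959 reads a library, 2577272 reads in all. Larp1 was lower in every siLarp1 library: at 24 h it stood at 72.4, 82.4 and 73.8 reads per 1000000 reads of the library (RPM) in siCtl and at 33.6, 36.3 and 20.5 in siLarp1, and at 48 h at 141 and 122 in siCtl and at 29.8 and 26.5 in siLarp1. With only 175 Larp1 reads, neither difference passed the limma voom test over all features (24 h, log2 fold change -1.31, SE 0.38, adjusted p = 0.627, and 48 h, -2.07, SE 0.58, adjusted p = 0.317). At 48 h it passed when features with at least 10 reads were tested (adjusted p = 0.0169). Of 10 pluripotency markers 9 were detected, Zfp42 being at 0, with a summed level of 2922 to 3843 RPM, against 28.2 to 87.0 for 4 of 5 neural markers (Neurod1 at 0), 22.9 to 385 for 3 of 4 mesoderm markers (Mesp1 at 0) and at most 4.50 for 3 of 4 endoderm markers (Afp at 0). These ranges overlapped between siCtl and siLarp1.

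The sequences below show what most LINE reads consist of. The copy with the most reads holds the processed pseudogene Gm6472, a copy of Rps7, a protein of the small ribosomal subunit. Over the 651 bases of the pseudogene 647 were identical to the Rps7 transcript (99.4%). The window below lies in the coding sequence of Rps7 and holds 2 of the 4 differences, in capitals, T8G and G30A, counted from the first base printed, gene first. All sequences are GENCODE vM21 transcripts on GRCm38, and the windows are chr12:28635607-28635636 on the minus strand and chrX:152910073-152910102 on the minus strand.
Rps7: aagatcgTgaagcccaatggcgagaagccG
Gm6472: aagatcgGgaagcccaatggcgagaagccA

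The second pair is Rps24, another protein of the small ribosomal subunit, and its pseudogene Rps24-ps3, which were identical at 398 of 402 bases (99.0%). The window at chr14:24493454-24493483 and its counterpart at chrX:79195397-79195426, both on the plus strand, hold the differences G10T and C30T.
Rps24: caggggcacGgcgaaggccaatgttggtgC
Rps24-ps3: caggggcacTgcgaaggccaatgttggtgT

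Of the 757 reads on a pair of L1Md copies, 188 were also aligned to Lars2, the mitochondrial leucyl-tRNA synthetase. The bases shown end the stretch of the Lars2 3′ untranslated region that these reads covered, at chr9:123462158-123462187 on the plus strand. The capitals mark the conserved sarcin-ricin loop sequence of large-subunit ribosomal RNA. The last sequence is the start of a LINE copy that forms part of an exon of Rian, an imprinted noncoding RNA, at chr12:109661512-109661541 on the plus strand.
Lars2: taatcctgctcAGTACGAGAGGAACCgcag
Rian: tttgtttgtttttattctgtcttctctata

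The LINE class held 10297 alignments from 9225 reads. L1 made up 9924 of these alignments (96.4%), on 1612 copies of 104 elements. L2, an older family, had 281 alignments on 178 copies. CR1 had 87 on 28 copies, and RTE-X had 5 on 3 copies. Values over the class therefore mainly describe L1. Of the L2 alignments 31.0% and of the CR1 alignments 5.75% were tagged PASS, which left 87 and 5 tail lengths, too few for a comparison between treatments.

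Reads were gathered on a few copies. A single read was the whole signal of 1406 copies, 46 copies had at least 10 reads, and 15 had at least 30. The copy Lx3B_dup3459 (chrX:152907041-152912611) had 4772 reads, 46.3% of all LINE alignments. L1Md_T_dup18258 (chr13:9832021-9838665) followed with 742 reads and L1_Mus1_dup14975 (chrX:79190355-79196303) with 608. In the plot of reads by copy, the first of these stands far to the right of the other 14.

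**Figure D1:**
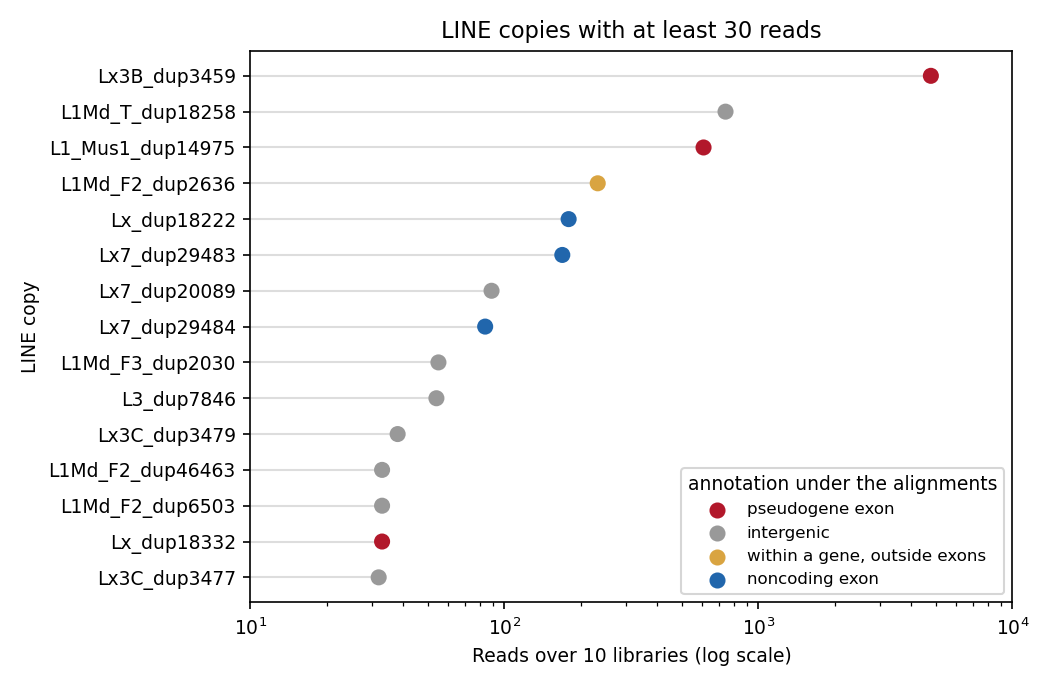
Reads over all 10 libraries (log scale) on the 15 LINE copies with at least 30 reads, coloured by the annotation under their alignments. Lx3B_dup3459 has 4772 reads, and the second copy, L1Md_T_dup18258, has 742.

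Among elements, Lx3B led with 4780 reads on 9 copies, 4772 of them on Lx3B_dup3459. L1Md_T had 803 reads, 742 of them on L1Md_T_dup18258. L1_Mus1 had 794, 608 of them on L1_Mus1_dup14975, and L1Md_F2 had 446, 233 of them on L1Md_F2_dup2636. Lx had 296, Lx7 281, Lx8 163 and L1Md_F3 129. L2a, the first element from another family, had 103. The remaining 6 of the 15 elements with the most reads, L1_Mur3, L3, L2c, L1M2, Lx5c and L1_Mus3, had 67 to 81 each. L1Md elements are the young mouse L1 subfamilies, some copies of which can still move. Whether the reads counted here came from transcripts of such copies was not tested. L1Md_A, which belongs to them, had 17 reads on 17 copies.

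By the GENCODE annotation, 5477 LINE alignments (53.2%) lay on a pseudogene exon, on 12 copies. Those on exons of noncoding genes numbered 760 (7.38%), and those on exons of protein-coding genes 111 (1.08%). A further 1501 (14.6%) lay within a gene but outside its exons, and 2448 (23.8%) lay outside annotated genes. The direction in which the reference copies were written is not given in the sources used here. Counted from the other end of each copy, 92.2% of all LINE alignments kept their place in this list, and 4795 instead of 5477 lay on a pseudogene exon. On copies without a pseudogene 97.7% kept it. Among 15 copies with a pseudogene exon and at least 5 alignments, 6 had most alignments on it only when counted from the chromosomal start. Only from the other end this held for 0, from either end for 3 and from neither for 6. The placements given here are counted from the chromosomal start.

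Ribosomal protein genes were the closest coding genes of 5 of the 12 pseudogenes, and these 5 held 5415 alignments, 98.9% of those on pseudogene exons and 52.6% of all LINE alignments. They were Gm6472 (Rps7, 4772 reads), Rps24-ps3 (Rps24, 598 reads), Gm4332 (Rps20, 24 reads), Gm6988 (Rps25, 20 reads) and Gm5845 (Rpl7a, 1 read). Outside these, Gm6750 had 30 reads, and Gm14719, a copy of Ppdpf, had 10. Counted in this way, the reads on the 2 copies with the most of these alignments lay on the pseudogene and not along the copy. On Lx3B_dup3459, 5571 bases long, the median alignment ran from base 2471 to base 3116. The exon of Gm6472 covers bases 2465 to 3115 when counted from the chromosomal start, or 2457 to 3107 from the other end. On L1_Mus1_dup14975 the median alignment ran from base 4671 to base 5173, over Rps24-ps3 at bases 4693 to 5094. From the other end Rps24-ps3 would cover bases 856 to 1257, where the median alignment does not lie. Mapping quality, which falls towards 0 when a read fits several sequences equally well, had a median of 1 on pseudogene exons.

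**Figure D2:**
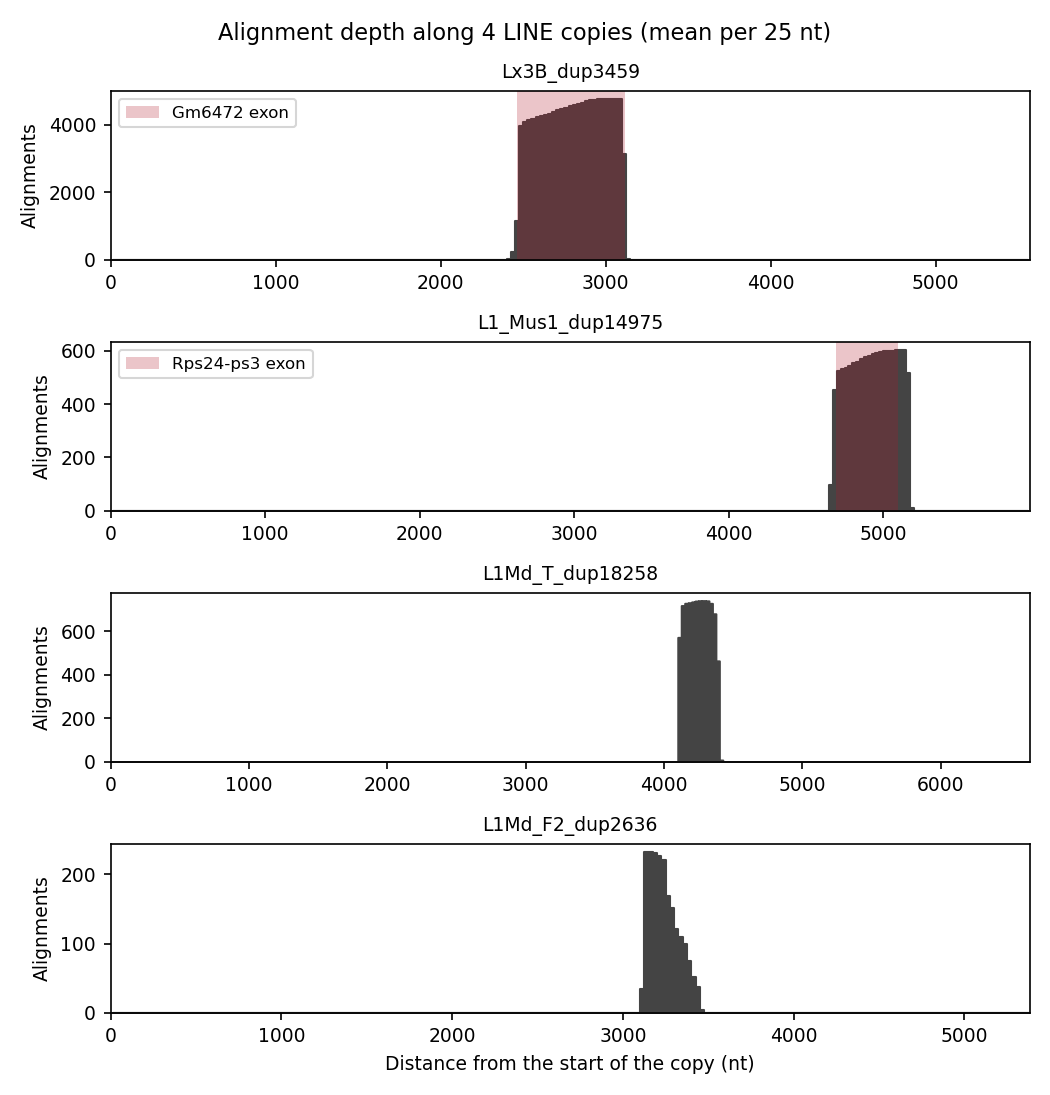
Number of alignments (mean in bins of 25 nt) along the 4 LINE copies with the most reads, against the distance in nt from the start of the copy. Shading marks the pseudogene exon, placed from the chromosomal start of the copy. In each copy the reads lie in 1 block.

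Rps7 transcripts drew reads of the same low mapping quality, with a median of 1 over 2646 reads. Gm6472 also had entries of its own in the mRNA class, with 26 reads at a median mapping quality of 0. Of the reads on either the LINE copy or an Rps7 transcript, the share placed on the LINE copy was 60.02%, 66.1% and 63.1% in the siCtl libraries of 24 h and 61.6%, 67.5% and 60.5% in the siLarp1 libraries. At 48 h it was 68.1% and 67.2% in siCtl and 68.8% and 65.4% in siLarp1. The groups overlapped at both times. Rps24 differed from Rps7 in this respect, as its own transcripts held 10031 reads, with a median mapping quality of 21, against 598 on Rps24-ps3. In tail length the copies were unlike the transcripts, over all libraries. The median was 83.8 nt on Lx3B_dup3459 against 109.85 nt on Rps7 transcripts, with 2.66% against 1.17% under 30 nt. It was 74.4 nt on Rps24-ps3 against 91.9 nt on Rps24 transcripts, with 6.17% against 3.63% under 30 nt. Reads on the pseudogene exons seldom had an mRNA alignment as well (0.712%), so that leaving out reads shared with mRNAs did not remove them.

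The next group consists of L1Md_T_dup18258, outside annotated genes, and L1Md_F2_dup2636 (chr1:100176976-100182358), within Cntnap5b but outside its exons. They had 742 and 233 reads, of which 218 were common to both, 93.6% of the smaller set. On L1Md_T_dup18258 the reads covered a block from about base 4103 to base 4396 of 6645, with a median mapping quality of 60. Lars2 was aligned by 181 and 83 of the reads. Conversely, 188 of the 238 Lars2 reads were on either copy, beside 757 reads on the pair in all. Lars2 alignments had a median mapping quality of 0, and 10.1% of them were tagged PASS. From which sequence the reads of the pair came was not tested. Those Lars2 alignments ran from about base 3031 to base 3417 of the transcript, whose last coding base is 2905.

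A run of 3 adjoining copies on chromosome 12, between 109660692 and 109661691, lay in Rian. Lx7_dup29483 had 169 reads, Lx_dup18222 had 179 and Lx7_dup29484 had 84, 193 separate reads in all. A copy on the X chromosome, Lx7_dup20089 (chrX:64498691-64498870), had 89 reads, 84 of which were also on Lx_dup18222, and its median mapping quality was 0. Some smaller copies also shared reads with genes. L3_dup7846, a CR1 copy, shared 43 of its 54 reads with Il17d, a cytokine gene. L1Md_F2_dup46463 shared 26 of 33 with Taco1, a mitochondrial translation activator, and these made up 72.2% of the Taco1 reads. All 33 reads of L1Md_F2_dup6503 also had an mRNA alignment, most commonly to the mitochondrial genes mt-Nd4 and mt-Nd5. Its 10 PASS reads had a median tail of 41.7 nt.

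Altogether 1320 LINE reads (14.3%) also had an mRNA alignment, to 677 genes, and 807 reads lay on more than 1 LINE copy. Alignments to LINE copies were short, with a median of 506 nt. Those over 1000 nt numbered 122 (1.18%), and the longest was 4806 nt. Of the alignments that were neither on a pseudogene exon nor on the pair of copies tied to Lars2, 81.8% came within 5 nt of an edge of the copy and 43.2% within 5 nt of both edges. These copies were short, with a median length of 330 nt over the alignments, so that such reads covered the copy to its border.

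The RNA had been selected by its poly(A) tail, so that LINE reads carried tails was given by the method. Their tail lengths differed by what the reads lay on. Reads on copies of ribosomal protein genes (4711 PASS reads) had a median tail of 82.5 nt, with quartiles of 57.0 and 120 nt, and 3.04% were under 30 nt, the shortest class that the study distinguished. On the pair of copies tied to Lars2 the median of 624 reads was 90.2 nt, with quartiles of 42.2 and 174 nt, and 19.07% were under 30 nt. The other LINE reads (1321) had a median of 119 nt, quartiles of 73.2 and 177 nt, and 4.92% under 30 nt. mRNA reads had a median of 99.3 nt, with 2.65% under 30 nt. The reads on this pair of copies, most of which had no Lars2 alignment, thus spread over the widest range of the 4 sets between their quartiles. On the Rian copies 86 PASS reads had a median tail of 173 nt.

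**Figure D3:**
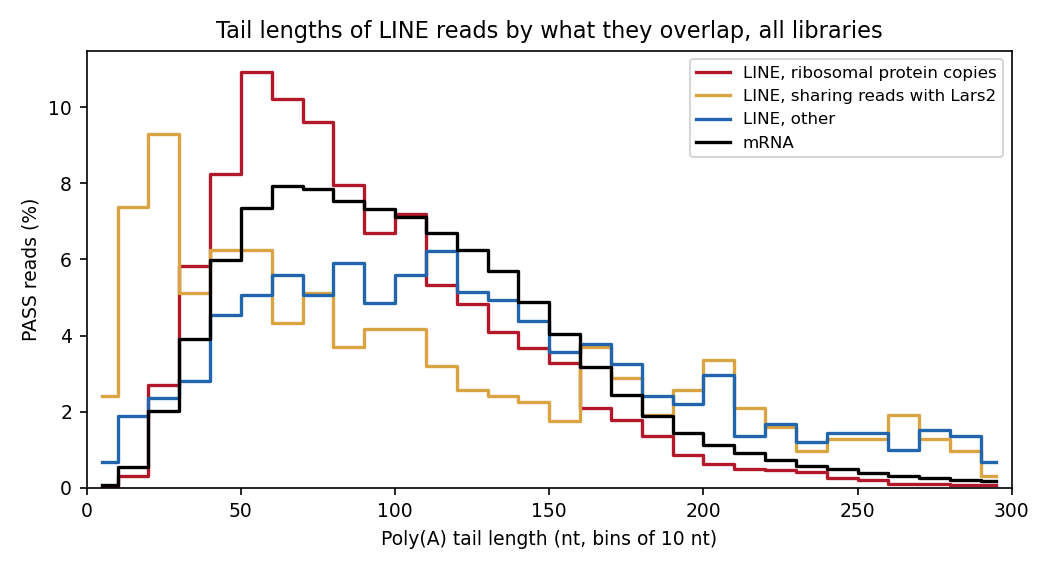
Poly(A) tail lengths (nt, bins of 10 nt, up to 300 nt) as percent of the PASS reads of each set, all libraries together. Reads on ribosomal protein copies lie left of the mRNA curve (medians 82.5 and 99.3 nt), and the set tied to Lars2 has 19.07% of its reads under 30 nt.

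To set LINEs beside the other classes within each library, reads with a LINE alignment and no mRNA alignment were used, 7905 in all and named LINE-only below. Reads lying in noncoding genes could remain among them, as the data held 0 lincRNA alignments. Of the alignments on the Rian copies only 0.926% were from reads with an mRNA alignment. The median tail of LINE-only reads averaged 85.7 ± 5.18 nt (SD, n = 10 libraries). That was 13.0 nt below mRNA and lower in 10 of 10 libraries (exact sign-flip permutation test, two-sided as all tests here, p = 0.00195, the smallest it can give, adjusted p = 0.0022 over 9 comparisons). It was 13.8 nt below SINE reads (lower in 9 of 10, exact p = 0.00586, adjusted p = 0.00586) and 41.0 nt below LTR reads (lower in 10 of 10, exact p = 0.00195, adjusted p = 0.0022). On average over the libraries LINE-only reads thus had the shortest median tail of the 4 classes, with 1 library in which SINE reads were shorter.

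This order changed when copies were left out, an alternative added after seeing the data. Without the copies that hold a pseudogene, the LINE-only median was 15.4 nt above that of mRNA (exact permutation p = 0.00391) and 14.6 nt above that of SINE (exact p = 0.0117). Without Lx3B_dup3459 alone it differed by -0.83 nt from mRNA (exact p = 0.713) and by -1.64 nt from SINE (exact p = 0.629).

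Tails under 30 nt made up 5.11% of LINE-only PASS reads, on average over the libraries, against 2.84% for mRNA, 11.1% for SINE and 1.497% for LTR. LINE-only reads had more of them than mRNA and LTR reads, and fewer than SINE reads, in 10 of 10 libraries each (exact p = 0.00195 each, adjusted p = 0.0022). Without the copies that hold a pseudogene the distance to mRNA grew to 7.20 percentage points and that to SINE shrank to -1.08 (exact p = 0.354). PASS reads were 78.4% of LINE-only reads, which differed by -5.86 percentage points from mRNA, by 6.33 from SINE and by 23.5 from LTR reads (exact p = 0.00195 each, adjusted p = 0.0022). Without Lx3B_dup3459 the difference from SINE turned to -7.29 points (exact p = 0.00195), and without all copies that hold a pseudogene to -13.8 (exact p = 0.00195).

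**Figure D4:**
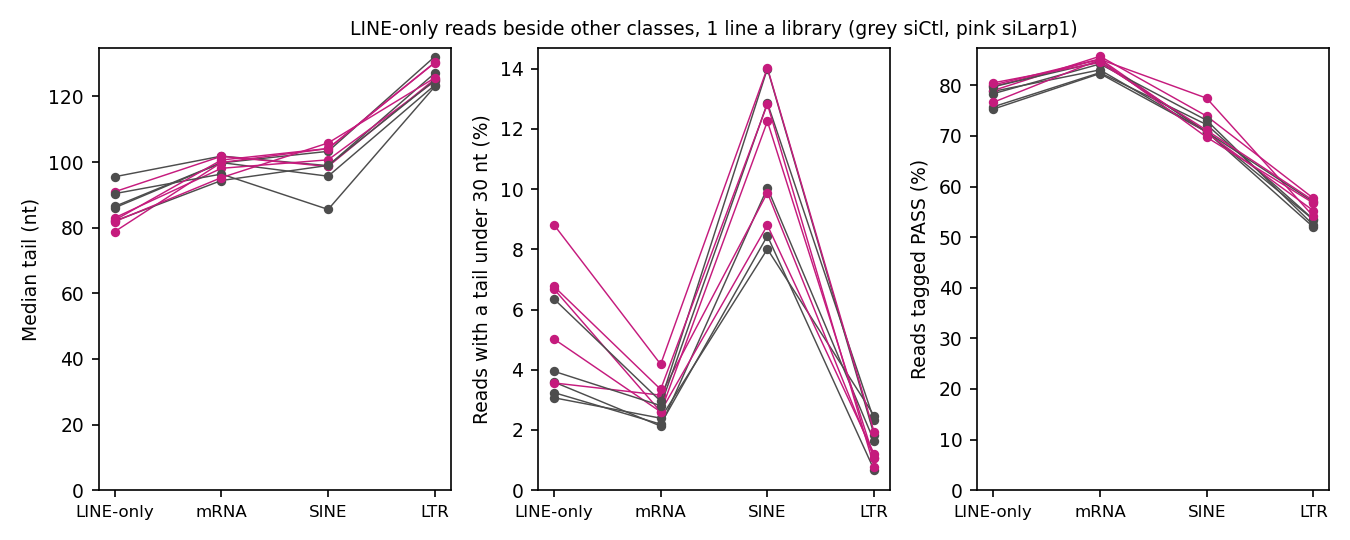
Median tail (nt), share of PASS reads with a tail under 30 nt (%) and share of reads tagged PASS (%) in LINE-only, mRNA, SINE and LTR reads, 1 line for each of the 10 libraries, siCtl grey and siLarp1 pink. LINE-only medians lie below those of mRNA in 10 of 10 libraries, and their short-tail share lies between mRNA and SINE.

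The question put to the LINE reads was whether their amount or tails changed when Larp1 was depleted. LARP1 binds the start of mRNAs for ribosomal proteins and other parts of the translation machinery, as well as poly(A), and is known to stabilise those mRNAs. The share of reads that were LINE reads was 0.339%, 0.361% and 0.336% in siCtl and 0.371%, 0.369% and 0.328% in siLarp1 at 24 h, where the groups overlapped (exact permutation p = 0.5). At 48 h it was 0.383% and 0.413% in siCtl and 0.372% and 0.366% in siLarp1, which did not overlap, though 2 libraries against 2 cannot give an exact p below 0.333. Over both times the mean difference was -0.00909 percentage points (exact permutation within times, p = 0.583, adjusted p = 0.683 over 6 measures). For LINE-only reads it was -0.00517 points (exact p = 0.683, adjusted p = 0.683).

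The median tail of LINE reads was 87.8, 95.9 and 87.5 nt in siCtl and 85.2, 85.1 and 91.6 nt in siLarp1 at 24 h. At 48 h it was 84.8 and 90.3 nt in siCtl and 81.9 and 85.5 nt in siLarp1. The groups overlapped at both times, and the mean difference over both was -3.46 nt (exact permutation p = 0.167, adjusted p = 0.275). LINE-only reads differed by -4.61 nt (exact p = 0.183, adjusted p = 0.275). Without the copies that hold a pseudogene the differences were 2.81 nt (exact p = 0.383) and 3.31 nt (exact p = 0.65).

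LINE reads with a tail under 30 nt were more frequent in siLarp1 libraries at both times. At 24 h they were 3.97%, 3.40% and 3.68% of PASS reads in siCtl and 6.13%, 4.41% and 5.37% in siLarp1, that is 3.69 ± 0.28% against 5.30 ± 0.86% (SD, n = 3 each, exact permutation p = 0.1, the smallest possible). At 48 h they were 6.20% and 4.69% in siCtl and 9.30% and 6.89% in siLarp1, or 5.45 ± 1.07% against 8.09 ± 1.70% (SD, n = 2 each, exact permutation p = 0.333, the smallest possible). The groups did not overlap at either time, and within the first and the second sequencing run of the 48 h pool the difference was 2.50 and 2.84 percentage points. Each of these shares rests on 20 to 49 short reads a library. The share of all alignments tagged PASS also lay apart by treatment at 24 h. It was 79.9%, 81.0% and 80.3% in siCtl and 82.7%, 83.5% and 82.8% in siLarp1. At 48 h it overlapped, at 81.4% and 82.4% in siCtl and 82.3% and 81.9% in siLarp1.

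Over both times the difference was 2.13 percentage points (exact permutation p = 0.0167, the smallest that 120 arrangements allow, adjusted p = 0.1 over the 6 measures), so it did not pass after adjustment. For LINE-only reads it was 2.22 points (exact p = 0.0333, adjusted p = 0.1), with overlap at 24 h, where siLarp1_21 at 3.56% lay below siCtl_22 at 3.59%. The size of the effect at 48 h minus that at 24 h was 1.03 points (exact permutation p = 0.7). mRNA reads in the same libraries had 2.19%, 2.39% and 2.13% in siCtl and 2.61%, 3.16% and 2.60% in siLarp1 at 24 h, and 2.96% and 2.81% in siCtl and 4.18% and 3.35% in siLarp1 at 48 h. They too were higher in every siLarp1 library than in the siCtl libraries of the same time. On the log2 odds scale the siLarp1 effect on LINE-only reads exceeded that on mRNA reads by 0.28 (exact permutation p = 0.267), which is not shown to differ. The sign turned without Lx3B_dup3459 (-0.0609) and without the copies that hold a pseudogene (-0.263).

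**Figure D5:**
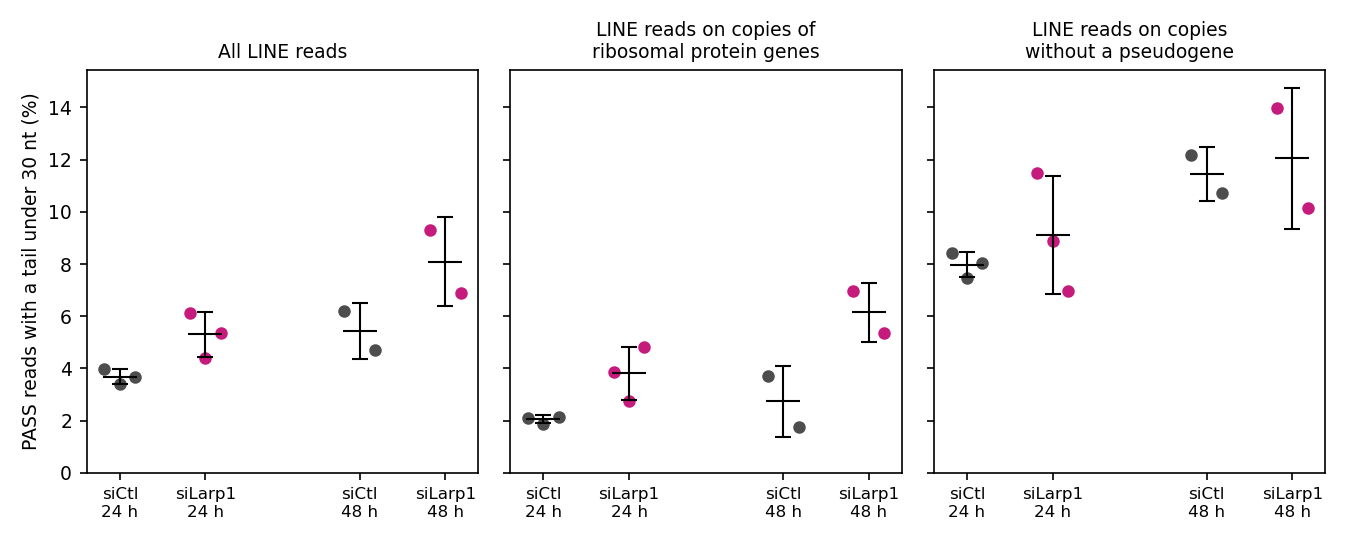
Share of PASS reads with a tail under 30 nt (%) in each library (points), with the mean and SD of each group, for all LINE reads, LINE reads on copies of ribosomal protein genes, and LINE reads on copies without a pseudogene. In the first 2 panels siLarp1 libraries lie above the siCtl libraries of the same time, and in the last they overlap.

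Copies of ribosomal protein genes hold 4711 PASS reads, a part of the LINE reads above and not a separate set. The treatments were apart on them. The short-tail share there was 2.12%, 1.87% and 2.15% in siCtl and 3.86%, 2.77% and 4.82% in siLarp1 at 24 h. At 48 h it was 3.70% and 1.77% in siCtl and 6.96% and 5.36% in siLarp1. The groups did not overlap at either time. This set was put together after the annotation and the values had been seen, so these shares are a description and no p is given. On copies without a pseudogene the shares were 8.43%, 7.47% and 8.04% in siCtl and 11.5%, 8.87% and 6.98% in siLarp1 at 24 h, and 12.2% and 10.7% against 14.0% and 10.1% at 48 h. Here the groups overlapped at both times, and the difference over both was 0.87 percentage points (exact permutation p = 0.467). These copies include the pair tied to Lars2, of whose PASS reads 19.07% were under 30 nt over all libraries. The share of that pair by treatment is not given here.

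The ribosomal protein copies consist mainly of reads of Rps7 sequence and reads of Rps24 sequence. On Lx3B_dup3459 the short-tail share was 2.00%, 1.82% and 1.83% in siCtl and 2.44%, 1.84% and 3.75% in siLarp1 at 24 h, and 3.66% and 1.72% against 6.07% and 5.95% at 48 h. The groups overlapped at 24 h and were apart at 48 h. On Rps24-ps3 it was 3.51%, 2.44% and 4.85% in siCtl and 14.7%, 7.84% and 10.7% in siLarp1 at 24 h, and 4.76% and 2.33% against 11.5% and 0% at 48 h. The 24 h groups were apart, while the 48 h groups overlapped, on 0 to 7 short reads a library. Leaving out Lx3B_dup3459 left a difference over all LINE reads of 1.58 points (exact permutation p = 0.25).

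Of the parent mRNAs, Rps24 had more reads than its copy (10031 against 598) and Rps7 had fewer (2646 against 4772). Rps24 transcripts had 2.75%, 1.67% and 3.06% of tails under 30 nt in siCtl and 5.64%, 5.27% and 4.55% in siLarp1 at 24 h. At 48 h they had 3.27% and 2.34% in siCtl and 6.07% and 6.43% in siLarp1. These groups did not overlap at either time. In the limma fit of tail lengths over all features, on the log2(tail + 1) scale, Rps24 fell by 0.13 at 24 h (SE 0.03, adjusted p = 0.0305), 1 of 4 features called of 4872 tested (0.0821%). The call was lost with all quality tags (adjusted p = 0.826) and without siCtl_19, siCtl_21, siLarp1_19, siLarp1_21 or siLarp1_22 (adjusted p = 0.0912 to 0.630), while the difference stayed between -0.16 and -0.10. At 48 h its difference was -0.12 (SE 0.03, adjusted p = 0.354). Rps7 transcripts had 1.37%, 1.06% and 1.03% short tails in siCtl and 1.37%, 0.813% and 0.538% in siLarp1 at 24 h, with overlap, and 0.909% and 0% against 3.57% and 2.46% at 48 h. Their tails differed by 0.06 (SE 0.05, adjusted p = 0.940) and -0.02 (SE 0.07, adjusted p = 0.982).

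Single elements were tested in the same fits. Of 29 LINE elements with at least 30 reads at 24 h, limma voom called none in abundance, against 1 of 5589 features in all (0.0179%). With the library number as a replicate block, limma voom called 14 of the 5589 features at 24 h. Of the 29 LINE elements 1 was among them, L1_Mus1. Without the block 3 of the 29 LINE elements had an unadjusted p under 0.05, against 304 of the 5589 features. At 48 h none of 10 was called, against 2 of 3268 features (0.0612%), and 1 of the 10 had an unadjusted p under 0.05, against 146 of the 3268 features. limma-trend called no LINE element either, with 1 at an unadjusted p under 0.05 at each time, against 282 and 157 features. The LINE differences lay on both sides of 0, 14 above and 15 below at 24 h, with a median of -0.00 beside 0.01 for all features, and 3 above and 7 below at 48 h, with a median of -0.04 beside 0.03.

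L1_Mus1 had the smallest p among them. It stood at 231, 295 and 264 RPM in siCtl and at 343, 387 and 420 in siLarp1 at 24 h, groups that did not overlap. The log2 fold change was 0.55 (SE 0.15, unadjusted p = 0.000703, adjusted p = 0.627). With the replicate block the difference was the same, 0.55, and the adjusted p was 0.00988. Most of its reads were on Rps24-ps3, which stood at 169, 213 and 210 RPM in siCtl and 262, 345 and 312 in siLarp1. At 48 h L1_Mus1 had 282 and 347 in siCtl and 382 and 299 in siLarp1, which overlapped (0.10, SE 0.22, adjusted p = 0.982). Rps24 transcripts differed by 0.14 at 24 h (SE 0.06, limma voom adjusted p = 0.853) and by 0.05 at 48 h (SE 0.09, adjusted p = 0.982).

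Lx3B, nearly all of it Rps7 sequence, differed by -0.06 at 24 h (SE 0.08, adjusted p = 0.969) and by -0.24 at 48 h (SE 0.12, adjusted p = 0.929). Rps7 transcripts had close to the same values, -0.06 (SE 0.10, adjusted p = 0.981) and -0.23 (SE 0.16, adjusted p = 0.929). L1Md_T had 306, 337 and 175 RPM in siCtl and 444, 393 and 235 in siLarp1 at 24 h, with overlap (log2 fold change 0.40, SE 0.21, adjusted p = 0.877), and differed by 0.04 at 48 h (SE 0.21, adjusted p = 0.996). Most L1Md_T reads were on L1Md_T_dup18258, of the pair tied to Lars2. L1Md_F2 differed by -0.00 (SE 0.22, adjusted p = 0.998) and -0.02 (SE 0.26, adjusted p = 0.999). Over the 29 elements tested at 24 h the SE ranged from 0.08 to 0.72, so small changes of the elements with few reads were not detectable at this depth.

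In tail length, limma called none of 8 LINE elements at 24 h, with 1 at an unadjusted p under 0.05, against 307 of 4872 features, and none of 6 at 48 h, with 1, where no feature of 2750 was called (0%) and 168 had an unadjusted p under 0.05. L1_Mus1 was again the one with the smallest p at 24 h, at -0.23 (SE 0.08, adjusted p = 0.560). Lx3B differed by -0.07 (SE 0.04, adjusted p = 0.834) at 24 h and by -0.09 (SE 0.05, adjusted p = 0.860) at 48 h. L1Md_T differed by -0.02 (SE 0.10, adjusted p = 0.990) and 0.02 (SE 0.12, adjusted p = 0.991). Lx7, the element under an unadjusted p of 0.05 at 48 h, lay on the other side of 0, at 0.28 (SE 0.17, adjusted p = 0.884) at 24 h and 0.47 (SE 0.19, unadjusted p = 0.0191, adjusted p = 0.746) at 48 h.

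Genes known to bind or restrain L1 were listed as well, 35 in all, of which 26 were tested in abundance at 24 h and 20 at 48 h. limma called none at either time by voom or by trend, with 1 at an unadjusted p under 0.05 at each time, and their smallest adjusted p was 0.816 and 0.561. Their median log2 differences were 0.12 and 0.26, beside 0.01 and 0.03 for all features. Pabpc1, the poly(A)-binding protein, had the most reads and differed by 0.17 (SE 0.11, adjusted p = 0.929) at 24 h and by 0.09 (SE 0.15, adjusted p = 0.976) at 48 h. Trim28, which silences retrotransposons through chromatin, differed by -0.05 (SE 0.13, adjusted p = 0.982) and 0.26 (SE 0.18, adjusted p = 0.929). Hnrnpu, a nuclear RNA-binding protein, had the smallest p at 48 h, at 0.61 (SE 0.19, adjusted p = 0.561). Pcna, the replication clamp, and Ptbp1, a splicing regulator, differed by 0.06 and -0.12 at 24 h (SE 0.12 and 0.14) and by 0.08 and 0.04 at 48 h (SE 0.18 and 0.19).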

How the data were processed

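The authors sequenced poly(A) RNA of 10 libraries by nanopore direct RNA sequencing, aligned it with minimap2 (version 2.20) to transcripts and repeat copies, and measured tails with Nanopolish. They deposited 1 table with a tail length in nt, a quality tag, a mapping quality score and a barcode confidence fraction for each alignment. Here reads were tallied by library, using groups from the labels, and no column of another series' samples was present (0). LINE copies were placed on GENCODE vM21 exons by an overlap of at least 50% of the alignment, and pseudogenes were matched to coding genes by shared words of 21 bases. Group means were compared by exact permutation over libraries, and features with at least 30 reads by limma 3.58.1 (R 4.3.3), abundance by voom and tails as mean log2(tail + 1), with Benjamini-Hochberg adjustment. The named items were the 15 LINE elements with the most reads, L1Md elements with at least 30, the families, Larp1 and the 5 most abundant of 35 host genes. Copies, sequences and parent genes were named after their values were seen. The members and lists were chosen with earlier results of these data known. Scripts were tested on simulated data. Alternatives were a mapping quality of at least 10, a barcode confidence of at least 0.9, other filters and normalizations, each library left out, and LINE reads without Lx3B_dup3459 or without copies that hold a pseudogene, both added after seeing the data. Python 3.11.15, pandas 2.3.3, numpy 2.4.6 and Biopython 1.88 were used.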

Additional observations from a re-analysis of the deposited data

How the results depend on the processing

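The short-tail differences over both times lost their unadjusted call under several settings. With a mapping quality of at least 10 they were 2.37 points for LINE and 2.88 for LINE-only reads (exact p = 0.2 each), and LINE-only reads with all quality tags gave 1.65 (exact p = 0.1). Without Lx3B_dup3459 they were 1.58 and 1.71 (exact p = 0.25 and 0.267), and without copies that hold a pseudogene 0.871 and 0.683 (exact p = 0.467 and 0.817), with -0.0264 for LINE-only reads at 48 h. With only the second sequencing run of 48 h they were 2.23 and 2.50 (exact p = 0.0667 and 0.117). With each element counted once the LINE value was -0.434, and -2.61 at 48 h. Leaving out 1 library at a time gave 1.53 to 2.73 points for LINE reads, with the call lost without siCtl_25 (1.75, exact p = 0.0833) or siLarp1_24 (1.53, exact p = 0.05), and 1.61 to 2.82 for LINE-only reads, with the call lost without siCtl_19, siCtl_21, siCtl_22, siCtl_25 or siLarp1_24. The cause was not tested.

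The shares of LINE reads and the median tails passed no test, and their signs turned under several settings. With a mapping quality of at least 10 the read share differed by 0.000823 points at 48 h and 0.0036 over both times (LINE-only 0.00434 and 0.00671), and the median tail by 4.14, 3.83 and 3.99 nt at 24 h, at 48 h and over both (LINE-only 4.78, 2.11 and 3.44). Without Lx3B_dup3459 the read share differed by 0.00911 over both times (LINE-only 0.00659 at 48 h and 0.0126 over both). Without copies that hold a pseudogene it differed by 0.0016 over both (LINE-only 0.00238 at 48 h and 0.00484 over both), and the median tail by 2.82, 2.79 and 2.81 nt (LINE-only 5.32, 1.31 and 3.31). With each element counted once the median tail differed by 2.41, 4.54 and 3.48 nt. The second run of 48 h gave 3.94 nt at 48 h and 0.432 over both (LINE-only 1.69 at 48 h), and 0.00278 points of LINE-only read share. Leaving out 1 library gave -0.0132 to 0.00282 points for the LINE-only read share over both times, positive without siLarp1_22 or siCtl_25, and -8.31 to 0.05 nt for the LINE-only median at 48 h, positive without siCtl_25.

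Between classes, a mapping quality of at least 10 brought LINE-only minus SINE to -1.06 points of short tails (exact p = 0.213) and 0.816 points of PASS reads (exact p = 0.65). Without Lx3B_dup3459 the median tail differed by -0.829 nt from mRNA and -1.64 from SINE, the short tails by -2.17 points from SINE (exact p = 0.0586) and the PASS share by -7.29. Without copies that hold a pseudogene these were 15.4, 14.6, -1.08 (exact p = 0.354) and -13.8. The siLarp1 effect against mRNA turned to -0.0609 and -0.263 on the log2 odds scale without that copy and without those copies.

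Features called in abundance numbered 2 at 24 h and 5 at 48 h with at least 10 reads, 11 and 16 with at least 1 read, and 0 and 0 with limma-trend. At 48 h there were 0 with median-of-ratios size factors and 1 when repeat reads with an mRNA alignment were left out. Leaving out 1 library gave 0 to 3 at 24 h, with 0 without siCtl_19 or any siLarp1 library, and 0 to 5 at 48 h. For tails all quality tags gave 0 at 24 h, and leaving out 1 library gave 1 to 17 at 24 h, the highest without siCtl_22, and 0 to 8 at 48 h, the highest without siLarp1_25. None of these settings called a LINE element. Differences near 0 turned sign: L1Md_F2 gave 0.0186, 0.00523 and 0.0185 at 24 h with median-of-ratios size factors, limma-trend and without repeat reads on mRNAs, and 0.0349 at 48 h with limma-trend, and the L1Md_T tails gave 0.00668 and -0.0149 with all quality tags. Leaving out 1 library moved abundance at 24 h from -0.23 to 0.24 for L1Md_F2, -0.104 to 0.0112 for Lx3B, -0.0509 to 0.122 for Pcna and -0.108 to 0.021 for Trim28, and at 48 h from -0.14 to 0.28 for L1Md_T, -0.088 to 0.269 for L1_Mus1, -0.18 to 0.22 for L1Md_F2, -0.0265 to 0.258 for Pabpc1, -0.00316 to 0.192 for Pcna and -0.11 to 0.16 for Ptbp1. It moved tails from -0.12 to 0.13 at 24 h and -0.16 to 0.19 at 48 h for L1Md_T, and from -0.123 to 0.022 at 48 h for L1Md_F2.

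Libraries of both treatments share numbers, but these do not show a shared culture. The correlation of their deviations was 0.08, 0.19 and 0.33 at 24 h, where every library correlated best with its own number. Barcodes were also the same within a number at 24 h, so culture and barcode cannot be told apart. At 48 h the correlation was 0.12, and pairs of unlike numbers gave -0.12, equal in size by construction. The replicate block cannot move a mean difference over complete pairs, so the short-tail differences stayed at 2.13 and 2.22, and their exact p of 0.0625 each is the smallest that 5 pairs allow. The block gave 14 features called in abundance at 24 h, with L1_Mus1 among them (0.55, adjusted p = 0.00988), and 6 at 48 h, 18 and 2 in tails, and L1Md_F2 at 0.019 and 0.0275. Most LINE elements were limited by depth, with 29 of 114 tested at 24 h and 10 at 48 h.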
